A study of Homo sapiens with 6 samples.

Results

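The genes described here are HIF1A, a subunit of the transcription factor of the response to low oxygen, and 9 genes known as its targets. They were chosen by identifier (ID), with earlier results of these data known, and make up 10 of the 34866 gene IDs in the deposited table. Their levels were compared between 3 libraries of MKN45 cells given an adenovirus with a Golph3 short hairpin RNA (shRNA) and 3 libraries of MKN45 cells given an adenovirus with a control shRNA. MKN45 is a cell line from a human gastric adenocarcinoma, described in the study's design as negative for MUC6, and all cells were grown in RPMI1640 with serum. Every library therefore comes from 1 cancer line given an adenovirus, and uninfected cells and low-oxygen cultures were not analysed here. The labels do not say whether the replicate numbers stand for separate cultures or for different hairpins, so the p-values rest on sample-to-sample spread that could be technical in part.

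HIF1A pairs with ARNT and binds short DNA motifs called hypoxia response elements. In oxygen, prolyl hydroxylases of the EGLN family mark HIF1A protein for destruction through VHL, so HIF1A activity is set mainly by protein stability and its RNA level does not give it. Targets of the factor include genes for glucose uptake and glycolysis, vessel growth, collagen modification and turnover of mitochondria. In gastric and other carcinomas many of them are also controlled by growth factor signalling, stress pathways and other transcription factors.

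The values are estimated counts per mouse gene ID, while the labelled organism is human and the submitters' processing notes name the mouse build mm10. The table cannot settle whether reads of human cells were counted on mouse genes or whether the organism label is wrong, so levels are compared between libraries for the same gene and not between genes. The table gives no symbols. Those used here came with the 10 IDs and could not be looked up in the annotation used here, which is human. For the same reason GOLPH3 itself, markers of gastric epithelium and of other cell types, and a wider list of HIF pathway genes were not analysed here, so the knockdown is not checked. The GOLPH3 shRNA libraries held 4977645 to 5676169 estimated counts and the control shRNA libraries 6287037 to 7355140. In bulk RNA, fewer cells that express a gene and less of its RNA per cell cannot be told apart.

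Promoters of the human genes were read from RefSeq (build GRCh38.p14), where 8 of the 10 genes matched, with 11 start sites. Should the organism label be wrong, they are promoters of human counterparts and not of the genes counted. VEGFA and NDRG1 had no entry among the promoter sequences used here. The core of the hypoxia response element was searched on both strands in the 250 bases before each start, as ACGTG or GCGTG on the gene's strand and as CACGT or CACGC for the other strand. Of the 11 windows 7 held at least 1 match, or 63.6%, against 43.2% of all 35116 windows of the same length. The 11 windows come from only 8 genes, some with more than 1 start site, and the difference was not tested. The 4 windows printed are those of the genes that fell most (EGLN3, SLC2A1) and rose most (BNIP3, P4HA1) among the 8. Sequences run 5′ to 3′ on the gene's strand, and capitals mark the matches.
EGLN3, chr14:33951075-33951324, minus strand: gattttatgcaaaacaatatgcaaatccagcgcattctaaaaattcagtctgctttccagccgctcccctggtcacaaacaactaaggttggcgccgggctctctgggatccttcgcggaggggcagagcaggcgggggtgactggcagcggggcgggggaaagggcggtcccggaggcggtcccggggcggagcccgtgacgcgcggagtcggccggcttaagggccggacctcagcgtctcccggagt
SLC2A1, chr1:42958869-42959118, minus strand: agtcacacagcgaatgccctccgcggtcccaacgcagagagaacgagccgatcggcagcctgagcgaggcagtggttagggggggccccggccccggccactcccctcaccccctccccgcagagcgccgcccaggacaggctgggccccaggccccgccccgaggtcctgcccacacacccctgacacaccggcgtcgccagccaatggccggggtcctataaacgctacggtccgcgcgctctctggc
P4HA1, chr10:73096867-73097116, minus strand: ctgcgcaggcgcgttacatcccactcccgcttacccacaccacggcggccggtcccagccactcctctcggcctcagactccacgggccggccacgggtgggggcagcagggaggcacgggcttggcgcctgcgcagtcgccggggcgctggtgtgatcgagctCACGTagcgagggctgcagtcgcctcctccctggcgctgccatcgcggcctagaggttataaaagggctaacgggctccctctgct
BNIP3, chr10:131981924-131982173, minus strand: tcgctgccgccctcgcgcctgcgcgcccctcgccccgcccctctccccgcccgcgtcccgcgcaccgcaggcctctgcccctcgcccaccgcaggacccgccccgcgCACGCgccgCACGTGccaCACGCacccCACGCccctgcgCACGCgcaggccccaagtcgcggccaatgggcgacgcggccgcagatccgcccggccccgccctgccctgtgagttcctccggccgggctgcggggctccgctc
The BNIP3 window held 5 separate matched stretches, 1 of which is CACGTG and reads as a match on both strands, a word found in 6.34% of all windows. P4HA1 had 1 stretch, and the EGLN3 and SLC2A1 windows had 0. Of the other genes, ADM had 1 match, and HIF1A and PDK1 had a match at 1 of their start sites (1 and 2 stretches). PFKFB3 had 1 stretch at each of its start sites, and that of its second start is also CACGTG. These are matches of letters, and known elements of several of these genes lie outside such a window.

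The genes moved in both directions. With GOLPH3 shRNA 4 of the 10 fell, namely Egln3, Slc2a1, Pfkfb3 and Hif1a, 3 rose, namely Bnip3, P4ha1 and Vegfa, and 3 did not pass the test, namely Pdk1, Adm and Ndrg1. All 10 passed the filter on low counts. A change was called at an adjusted p below 0.05 in edgeR's quasi-likelihood test, with Benjamini-Hochberg adjustment over all 11400 tested IDs. Levels are in CPM, which scale the counts of each library to the same total. By the same rule 33.9% of all tested IDs were called, 17.8% lower and 16.1% higher, so a call by itself is common in this comparison. The called genes had a mean log2 CPM above that of 78.1% (Egln3) to 99.8% (Slc2a1) of tested IDs. The genes that did not pass lay above 42.9% (Ndrg1) to 70.7% (Adm). These ranks describe how many counts each gene gave to the test, and not how RNA levels differ between genes. The share called among IDs of like mean CPM was not tested. The median log2 fold change was -0.10 over the 10 genes and 0.0019 over all tested IDs. Apart from Egln3, the called genes changed by less than 1.5-fold. Without control shRNA replicate 2, only 2 genes were called lower, Egln3 and Slc2a1, and 2 higher, P4ha1 and Bnip3.

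**Figure D1:**
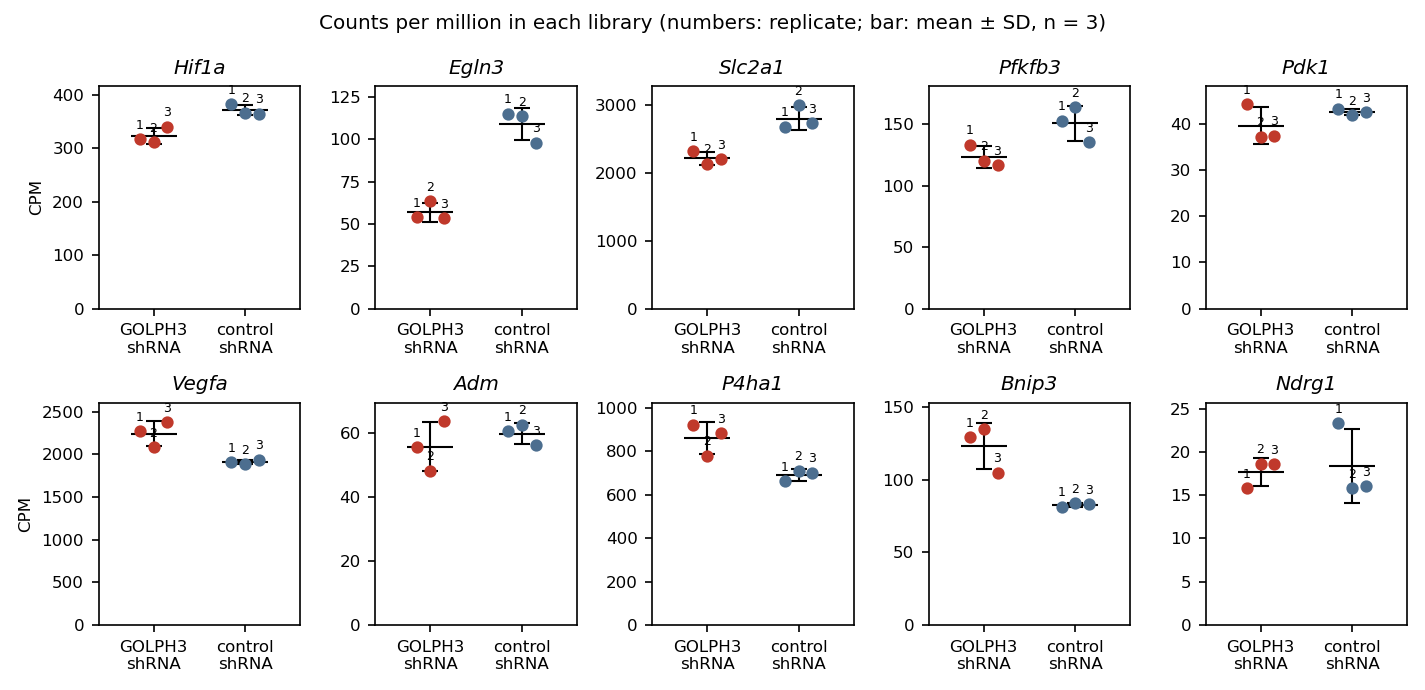
Level of each gene in CPM in each library, with GOLPH3 shRNA in red on the left and control shRNA in blue on the right of each panel. Points are libraries with their replicate number, horizontal bars are means and error bars are SD over 3 libraries; axes start at 0 and differ between genes. The groups are separate for 7 genes and overlap for Pdk1, Adm and Ndrg1.

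Among the regulators, Egln3 showed the greatest change of the 10 genes. EGLN3 is a prolyl hydroxylase that acts on HIF proteins and is itself induced by them, which makes it a feedback gene. Egln3 (ENSMUSG00000035105.5) had 54.1, 63.6 and 53.5 CPM in GOLPH3 shRNA replicates 1, 2 and 3, against 115, 114 and 98.2 CPM in control shRNA replicates 1, 2 and 3. The highest GOLPH3 shRNA value lay 34.6 CPM below the lowest control value, and the means were 57.1 ± 5.64 CPM with GOLPH3 shRNA and 109 ± 9.46 CPM with control shRNA (SD, n = 3 each). The log2 fold change was -0.93 (SE 0.10, edgeR adjusted p = 4.12e-06), a 1.91-fold lower level. Of all tested IDs, 488 (4.28%) had a lower log2 fold change. Its estimates were whole numbers in all 6 libraries, from 267 to 355 counts with GOLPH3 shRNA and from 623 to 835 counts with control shRNA.

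Hif1a itself was slightly lower. Hif1a (ENSMUSG00000021109.13) had 317, 312 and 341 CPM with GOLPH3 shRNA and 382, 367 and 365 CPM with control shRNA, so the groups did not overlap but stood only 24.5 CPM apart. Its log2 fold change was -0.20 (SE 0.067, edgeR adjusted p = 0.028), or 13.0% lower. This call is not firm: it was lost when GOLPH3 shRNA replicate 1 or 2, or control shRNA replicate 1 or 2, was left out, with edgeR adjusted p from 0.063 to 0.095. The direction held in each case, with log2 fold changes from -0.22 to -0.18.

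The glucose metabolism genes were lower or did not pass the test. SLC2A1 (GLUT1) carries glucose into the cell, PFKFB3 makes the fructose 2,6-bisphosphate that speeds glycolysis, and PDK1, pyruvate dehydrogenase kinase 1, holds pyruvate back from the mitochondrial citrate cycle. Slc2a1 (ENSMUSG00000028645.11) had 2322, 2135 and 2201 CPM with GOLPH3 shRNA and 2682, 2996 and 2731 CPM with control shRNA. All GOLPH3 shRNA libraries lay below all control libraries, by at least 360 CPM. Slc2a1 fell by 0.34 on the log2 scale (SE 0.067, edgeR adjusted p = 0.0011), a level 20.8% lower.

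Pfkfb3 (ENSMUSG00000026773.19) had 133, 120 and 117 CPM with GOLPH3 shRNA and 153, 164 and 135 CPM with control shRNA. The groups did not overlap, but GOLPH3 shRNA replicate 1 came within 1.82 CPM of control shRNA replicate 3. Pfkfb3 fell by 0.29 on the log2 scale (SE 0.087, edgeR adjusted p = 0.017), a level 18.2% lower. Its estimates had a fractional part in all 6 libraries, and whether reads shared with another gene model play a part was not tested. The call was lost without GOLPH3 shRNA replicate 3 (log2 fold change -0.26, edgeR adjusted p = 0.062) or without control shRNA replicate 2 (-0.23, edgeR adjusted p = 0.097).

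Pdk1 (ENSMUSG00000006494.11) had 44.2, 37.2 and 37.4 CPM with GOLPH3 shRNA and 43.3, 41.9 and 42.6 CPM with control shRNA. GOLPH3 shRNA replicate 1 was above every control library and the other GOLPH3 shRNA libraries were below them. The log2 fold change was -0.11 with a 95% interval of -0.34 to 0.13 (edgeR adjusted p = 0.49), so a decrease of the size seen for Slc2a1 is near the edge of what these libraries allow.

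Of the secreted factors, Vegfa rose and Adm did not pass the test. VEGFA is the main growth factor for blood vessels, and ADM encodes adrenomedullin, a peptide that widens vessels. Vegfa (ENSMUSG00000023951.17) had 2269, 2083 and 2371 CPM with GOLPH3 shRNA and 1907, 1886 and 1934 CPM with control shRNA. Every GOLPH3 shRNA library was above every control library, with an SD of 146 CPM in the GOLPH3 shRNA libraries and 24.4 CPM in the control libraries (n = 3 each). Vegfa rose by 0.23 on the log2 scale (SE 0.066, edgeR adjusted p = 0.013), a level 17.4% higher. The call was lost without GOLPH3 shRNA replicate 1 (log2 fold change 0.22, edgeR adjusted p = 0.070), without GOLPH3 shRNA replicate 3 (0.18, edgeR adjusted p = 0.0501) or without control shRNA replicate 2 (0.22, edgeR adjusted p = 0.065).

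Adm (ENSMUSG00000030790.15) had 55.5, 48.2 and 63.6 CPM with GOLPH3 shRNA and 60.6, 62.6 and 56.1 CPM with control shRNA. The highest and the lowest of the 6 values were both GOLPH3 shRNA libraries, replicates 3 and 2. The log2 fold change was -0.10 with a 95% interval of -0.34 to 0.14 (edgeR adjusted p = 0.52). Its estimates were fractional in 3 of the 6 libraries.

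P4ha1 rose. P4HA1 is the catalytic subunit of collagen prolyl 4-hydroxylase, the enzyme that hydroxylates proline in collagen chains and is needed for a stable triple helix. P4ha1 (ENSMUSG00000019916.14) had 921, 778 and 881 CPM with GOLPH3 shRNA and 661, 710 and 700 CPM with control shRNA. The groups were 68.4 CPM apart, with GOLPH3 shRNA replicate 2 the nearest to the controls. The increase was 0.32 on the log2 scale (SE 0.073, edgeR adjusted p = 0.0030), or 24.6% higher. Its estimates had a fractional part in all 6 libraries.

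Bnip3 showed the greatest increase of the 10 genes. BNIP3 is a protein of the outer mitochondrial membrane that promotes mitophagy, the removal of mitochondria, while NDRG1 is a cytoplasmic protein induced by hypoxia and other stresses. Bnip3 (ENSMUSG00000078566.8) had 130, 135 and 105 CPM with GOLPH3 shRNA and 81.4, 83.7 and 83.4 CPM with control shRNA. The GOLPH3 shRNA libraries were spread more widely than the nearly level control libraries (123 ± 15.9 CPM with GOLPH3 shRNA and 82.8 ± 1.24 CPM with control shRNA, SD, n = 3 each), and GOLPH3 shRNA replicate 3 was the nearest to the controls. Bnip3 rose by 0.57 on the log2 scale (SE 0.095, edgeR adjusted p = 0.00025), a 1.49-fold higher level, and 1233 of the tested IDs had a higher log2 fold change. Its estimates were fractional in all 6 libraries too, unlike those of Egln3.

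Ndrg1 (ENSMUSG00000005125.13) had the fewest reads of the 10 genes, 78 to 104 counts with GOLPH3 shRNA and 102 to 150 counts with control shRNA. It had 15.8, 18.6 and 18.6 CPM with GOLPH3 shRNA and 23.4, 15.8 and 16.1 CPM with control shRNA. Control shRNA replicate 1 was the highest of all 6, and the other control libraries lay within or at the lower edge of the GOLPH3 shRNA range. The log2 fold change was -0.054 with a 95% interval of -0.44 to 0.33 (edgeR adjusted p = 0.85). It turned to 0.014 without GOLPH3 shRNA replicate 1 (edgeR adjusted p = 0.97) and to 0.15 without control shRNA replicate 1 (edgeR adjusted p = 0.60), so no direction can be given.

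**Figure D2:**
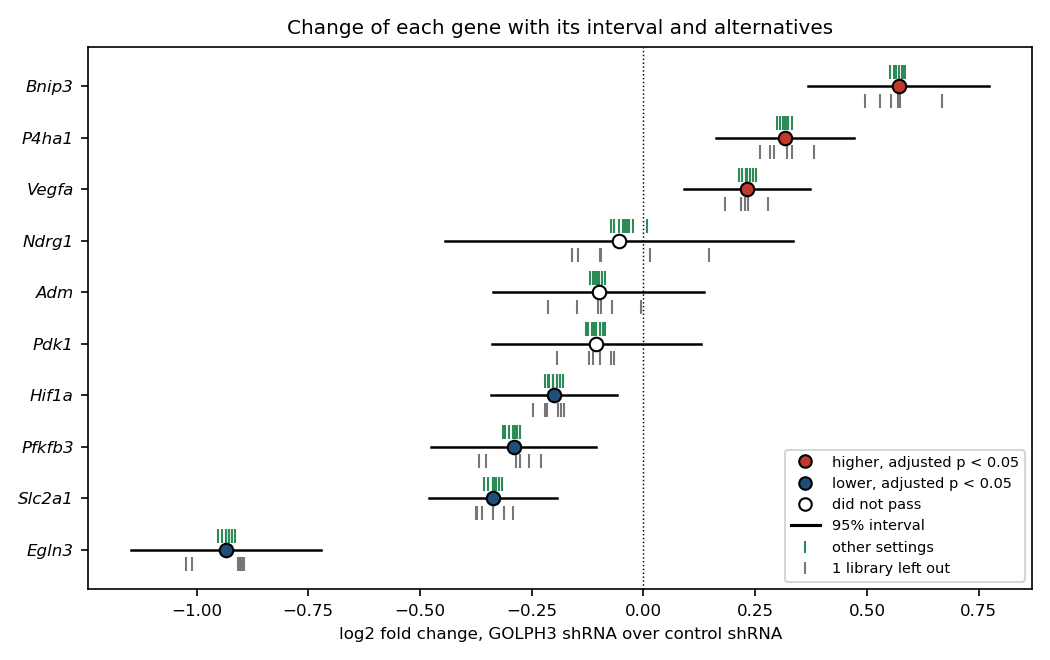
Log2 fold change of each gene, GOLPH3 shRNA over control shRNA, in order from the highest to the lowest. Circles are the edgeR estimates (red higher, blue lower, white not called), lines their 95% intervals, green ticks the other scalings, filters and tests, and grey ticks the fits with 1 library left out; Egln3 at -0.93 is clear of the other 9 genes, and the ticks of Ndrg1 fall on both sides of 0.

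In order of change the genes ran from Bnip3 (log2 fold change 0.57) through P4ha1 (0.32), Vegfa (0.23), Ndrg1 (-0.054), Adm (-0.10), Pdk1 (-0.11), Hif1a (-0.20), Pfkfb3 (-0.29) and Slc2a1 (-0.34) to Egln3 (-0.93). The 95% interval of Egln3, -1.15 to -0.72, did not meet that of Slc2a1, its neighbour in this order (-0.48 to -0.19). Every other pair of neighbours had overlapping intervals. Differences between genes were not tested.

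All 7 called genes had separate groups, 4 wholly lower and 3 wholly higher with GOLPH3 shRNA, where 46.3% of all tested IDs had separate groups, 24.2% wholly lower and 22.1% wholly higher. In an exact two-sided permutation test of the CPM each of these 7 gave p = 0.1, the smallest that 3 against 3 libraries allow. Separate groups always give this value, so it adds nothing to the separation. Pdk1 gave p = 0.4, Adm p = 0.6 and Ndrg1 p = 0.8 in the same exact test.

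**Figure D3:**
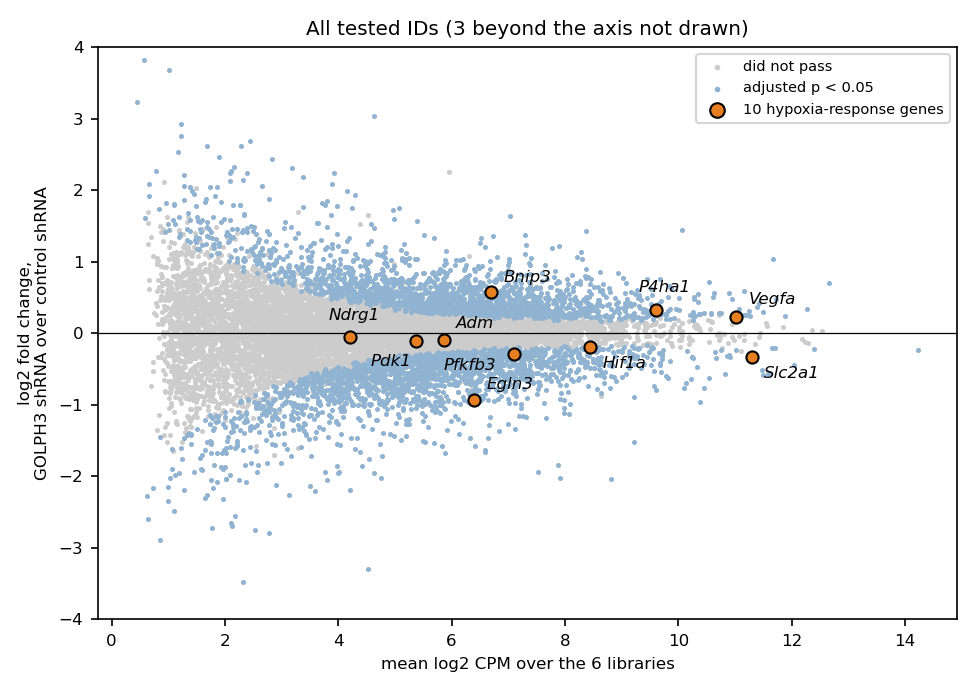
Log2 fold change (GOLPH3 shRNA over control shRNA) against mean log2 CPM for the 11400 tested IDs, blue where the adjusted p was below 0.05 and grey elsewhere; 3 IDs lie beyond the axis. The 10 genes are in orange, with Egln3 (-0.93) the lowest and Bnip3 (0.57) the highest of them.

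The GOLPH3 shRNA libraries did not rank alike from gene to gene. Taken as log2 CPM less the control mean, replicate 2 had the smallest increase of Vegfa (0.13) and P4ha1 (0.17) but the largest of Bnip3 (0.70). It also had the smallest decrease of Egln3 (-0.77, against -1.00 in replicate 1 and -1.02 in replicate 3) and the largest of Slc2a1 (-0.39) and Hif1a (-0.25). Replicate 3 had the smallest decrease of Hif1a (-0.12) with the largest of Pfkfb3 (-0.37) and the smallest increase of Bnip3 (0.34). For each of the 7 called genes the sign was the same in all 3 GOLPH3 shRNA libraries, as separate groups require.

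**Figure D4:**
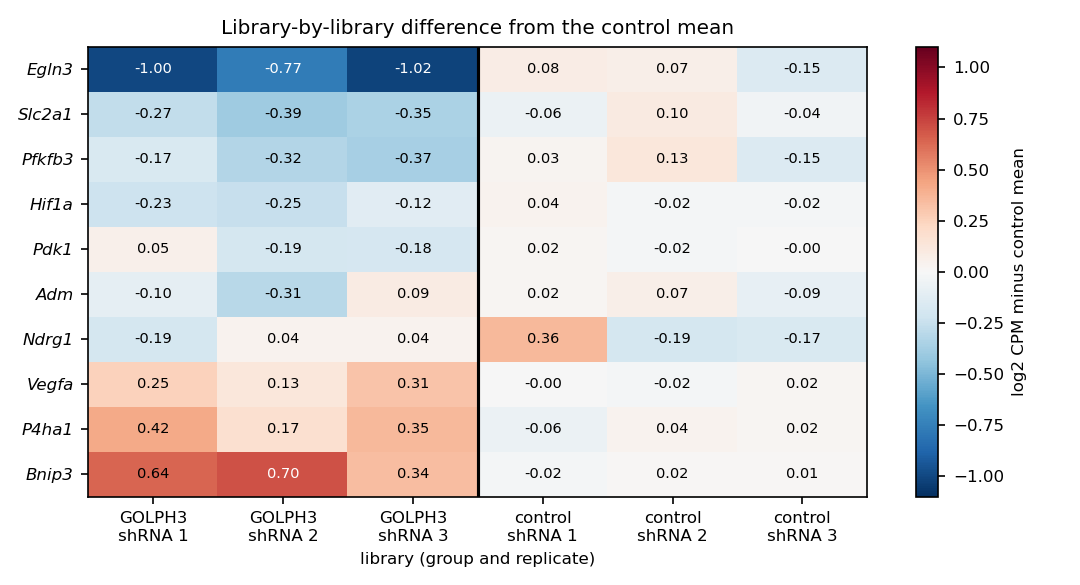
Log2 CPM of each gene (rows, from the lowest to the highest fold change) in each library (columns, GOLPH3 shRNA left of the line and control shRNA right) minus the mean of the control libraries; blue is lower and red higher. In GOLPH3 shRNA replicates 1, 2 and 3 Egln3 reads -1.00, -0.77 and -1.02 and Bnip3 reads 0.64, 0.70 and 0.34, while Pdk1, Adm and Ndrg1 change sign between libraries.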

How the data were processed

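RNA sequencing was analysed in 3 GOLPH3 shRNA and 3 control shRNA libraries of MKN45 cells, made with a stranded messenger RNA kit per the labels' protocols. The authors deposited estimated counts per gene, with mouse Ensembl IDs per the file headers and row names. The submitters' processing notes name build mm10, and no source used here gives the quantifier or strand setting. Estimated counts were rounded and IDs kept by filterByExpr (11400 of 34866). Groups were compared in edgeR 4.0.16 (R 4.3.3) with TMM factors, its quasi-likelihood test, p-values adjusted by Benjamini and Hochberg and no block. The SE is the log2 fold change over the root of the F statistic. CPM use the TMM-scaled library sizes; per-library log2 CPM use a prior count of 2. Alternatives were DESeq2 1.42.0, limma-voom (limma 3.58.1), other scalings and filters, unrounded or thinned counts, IDs with whole values, a replicate block and each library left out. No libraries of a group agreed within sampling noise (chi-square per degree of freedom 3.29 to 6.52). All 10 genes were named by rule; they and the lists were chosen with earlier results of these data known. The wider HIF list, GOLPH3 and cell type markers were to be matched by symbol and are not analysed here.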

Additional observations from a re-analysis of the deposited data

How the results depend on the processing

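Egln3, Slc2a1, P4ha1 and Bnip3 kept their call and direction under every alternative run for them (log2 fold changes from -1.02 to -0.89, -0.38 to -0.29, 0.26 to 0.38 and 0.50 to 0.67). Hif1a, Pfkfb3 and Vegfa lost their call only in fits with 1 library left out, in 4, 2 and 3 of these. Fits with 1 library left out gave 2 to 4 of the 10 genes lower and 2 to 3 higher, with 1644 to 1929 and 1425 to 1665 of all IDs; the 2 lower genes without control shRNA replicate 2 were Egln3 and Slc2a1. A lone fit of IDs with whole values in all libraries called 1240 IDs lower of 6263 tested, 3 of the 10 genes lower and 1 higher (Vegfa), since it leaves out Bnip3, P4ha1, Pfkfb3 and Adm by construction. Ndrg1 ran from -0.16 to 0.15 with 1 library left out. It changed sign in 3 alternatives, to 0.014 and 0.15 with replicate 1 of the GOLPH3 shRNA or of the control group left out and to 0.0081 with thinned libraries. With the replicate block 4 genes were lower and 3 higher (2045 and 1842 of all IDs), and it changed no call of the 10 genes. The labels state no pairing, so the numbers were not taken as pairs. Deviations from the group mean correlated at 0.032, 0.090 and 0.044 for same-numbered libraries. For libraries of different number they correlated at -0.0855 to 0.0373. Deviations within a group of 3 are tied to each other, so these values cannot decide whether libraries were paired. Under every scaling the median log2 fold change of all IDs lay between -0.0074 and 0.016. The wider HIF list was analysed under none of these settings, for want of symbols. Ndrg1, with the fewest counts of the 10 genes, had a 95% interval from -0.44 to 0.33; its coefficient of variation was 9.15% with GOLPH3 shRNA and 23.2% with control shRNA, and what sets the width was not tested.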
